A study of Caenorhabditis elegans with 10 samples.

Results

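The UDP-glucuronosyl transferase family of Caenorhabditis elegans was examined in embryos under high salt. Members are the protein-coding genes of the deposited table whose name is ugt followed by a number, which gave 65 of 45461 genes, or 65 of 20389 protein-coding genes. Of these, 64 reached at least 1 CPM, a count scaled to its library total, in 2 or more of the 10 libraries and are described below. The exception was ugt-27, whose second-highest library held 0.805 CPM, while the members nearest above the limit, ugt-14, ugt-3 and ugt-30, had a second-highest level of 2.00, 2.21 and 2.67 CPM before scaling between libraries.

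Enzymes of this family move a sugar from a UDP-bound donor onto small, fat-soluble molecules, which makes them more soluble in water and easier to export. This step is known as phase II of detoxification, and it follows oxidation by cytochrome P450 enzymes in phase I. In C. elegans many such enzymes act in the intestine, and glucose is a sugar the worm is known to attach to foreign and bacterial small molecules. No source used here gives the substrates of single members, so members are grouped below by level, by response and by position in the genome.

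Each library came from whole embryos collected 3 hours after egg preparation, and 2 libraries were made for each of 5 groups. In the group called N2 300-500 mM, the wild-type strain N2 was kept on 300 mM NaCl before its embryos went onto 500 mM, and these embryos are called preconditioned. In the other 4 groups the parents grew on 50 mM NaCl. Embryos carrying the lin-45 allele n2018, which affects the RAF kinase gene in the RAS to ERK pathway, and N2 embryos were each placed on 500 mM or on 50 mM. The mutation is carried by the whole animal, parents included, and the labels name a single allele.

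Totals ranged from 22138098 to 34585489 counts per library, and the family took 23286 to 80801 of them. The lin-45 RNA was present in every library, at 96.6 to 118.9 CPM in lin-45 embryos and 81.4 to 94.9 CPM in N2 embryos. Its level does not check the allele, since the labels do not say how the mutation acts. The salt-responsive gene gpdh-1, which encodes an enzyme of glycerol synthesis, stood at 73.3 to 187 CPM in all libraries labelled 500 mM and at 3.34 to 13.1 CPM in those labelled 50 mM. Transcripts of adult yolk genes summed to 4.01 to 10.7 CPM and those of sperm genes to 1.14 to 2.97 CPM, with msp-19 at 0 in every library and vit-5 at 0 in N2 embryos on 50 mM. CPM values are scaled between libraries by edgeR's TMM factors. No member differed by 2-fold or more between replicate libraries of a group, on a log2(CPM + 0.5) scale. The added 0.5 shrinks such gaps at low levels, and in plain CPM some members were over 2-fold apart. Among these, in preconditioned embryos, were ugt-34 at 1.98 and 0.907 CPM and ugt-7 at 1.76 and 0.673 CPM. Since separate cultures are not stated for replicates, the p-values reflect the spread among these libraries alone, and this spread may be technical.

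The members were unevenly placed in the genome. Chromosome V carried 41 of the 65, or 63.1%, against 25.1% of all protein-coding genes, and chromosome IV carried 12. A total of 30 members stood in 11 runs, in which neighbouring members had no other protein-coding gene between them. The longest runs held 4 genes each: ugt-26, ugt-27, ugt-28 and ugt-25 on chromosome I (ce10 chrI:4721178-4735280), and ugt-5, ugt-4, ugt-6 and ugt-3 on chromosome V (chrV:12790682-12800176). The 4 runs of 3 genes were all on chromosome V. They comprised ugt-11, ugt-9 and ugt-10 (chrV:4892575-4900068), ugt-8, ugt-14 and ugt-13 (chrV:4903959-4911444), ugt-40, ugt-37 and ugt-38 (chrV:7139463-7147451), and ugt-18, ugt-16 and ugt-15 (chrV:12820247-12830092). The first pair of these runs is separated by the gene H23N18.4 alone, which RefSeq now names ugt-67 and which the naming rule did not take in.

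Levels per transcript length, in the authors' FPKM, spread over a wide range within the family. The 6 members with the highest mean over the 5 groups were ugt-62, ugt-50, ugt-22, ugt-16, ugt-46 and ugt-18, with 80.5, 64.3, 53.2, 41.6, 41.2 and 36.3 FPKM. Their order depended on the group. On 500 mM ugt-62 ranked 12th in preconditioned, 17th in lin-45 and 20th in N2 embryos. On 50 mM it was the most abundant member in both strains, with 235 ± 10.3 FPKM in lin-45 embryos and 127 ± 9.17 FPKM in N2 embryos (SD, n = 2 each). On 500 mM ugt-50 ranked first in all 3 groups, with 88.4 ± 3.15, 64.1 ± 7.28 and 68.8 ± 1.26 FPKM in that order. The gene ugt-50 overlaps the nuclear receptor gene nhr-26 on the opposite strand, and no source used here says whether counting used strand, so reads of that pair cannot be told apart.

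The family as a whole was most abundant in lin-45 embryos on 50 mM and least abundant in preconditioned embryos. The summed level of the 65 members was 835 and 906 CPM in preconditioned embryos, 1136 and 1139 CPM in lin-45 embryos on 500 mM, 1102 and 980.2 CPM in N2 embryos on 500 mM, 3093 and 2773 CPM in lin-45 embryos on 50 mM and 1565 and 1682 CPM in N2 embryos on 50 mM. No 2 groups overlapped, but the gap between lin-45 and N2 embryos on 500 mM was smaller than the spread between the N2 libraries. So was the gap between preconditioned embryos and N2 embryos on 500 mM. With 2 libraries in a group, an exact two-sided permutation test between 2 groups cannot go below p = 0.333, and the sums were not tested in any other way. As a ratio to the mean of N2 embryos on 50 mM, the means were 0.536 for preconditioned embryos, 0.701 for lin-45 embryos on 500 mM, 0.641 for N2 embryos on 500 mM and 1.81 for lin-45 embryos on 50 mM. A single member, ugt-62, supplied 1.55% to 2.84% of the sum in libraries on 500 mM and 12.2% to 13.8% in those on 50 mM. The 5 most abundant members together made up 30.8% to 38.6% of the group sums. The mean level reached 10 CPM for 28 members in preconditioned embryos, 30 in lin-45 and 27 in N2 embryos on 500 mM, 45 in lin-45 embryos on 50 mM and 42 in N2 embryos on 50 mM.

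Because these are bulk samples, fewer cells of a type and less RNA per cell cannot be told apart. The summed level of 13 intestine marker genes, led by the protease gene asp-1, had its group means in the same order as the family sum. It was 2714 and 3293 CPM in preconditioned embryos, 4169 and 4096 CPM in lin-45 embryos on 500 mM, 3520 and 3076 CPM in N2 embryos on 500 mM, 8180 and 7741 CPM in lin-45 embryos on 50 mM and 5150 and 5645 CPM in N2 embryos on 50 mM. Of the 11 markers tested, 6 fell and 3 rose on 500 mM in N2 embryos, against 32.1% lower and 31.4% higher of all genes tested. The early endoderm gene end-1 was at 0 in both N2 libraries on 50 mM. The summed family level divided by the summed marker level was 0.275 to 0.308 in preconditioned embryos, 0.272 to 0.278 in lin-45 embryos on 500 mM, 0.313 to 0.319 in N2 embryos on 500 mM, 0.358 to 0.378 in lin-45 embryos on 50 mM and 0.298 to 0.304 in N2 embryos on 50 mM. Both sums were lower on 500 mM, and the ratio was highest in lin-45 embryos on 50 mM. The marker sum mostly reflects its most abundant genes, asp-1, act-5 and ifb-2. Their means were 1397, 401 and 477 CPM in N2 embryos on 500 mM, against 2569, 972 and 905 CPM on 50 mM. In the same groups elt-2 had 22.1 against 22.6 CPM, vha-6 had 376 against 363 CPM and cpr-6 had 202 against 30.7 CPM. The part of intestinal RNA in the family's levels was not tested.

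**Figure D1:**
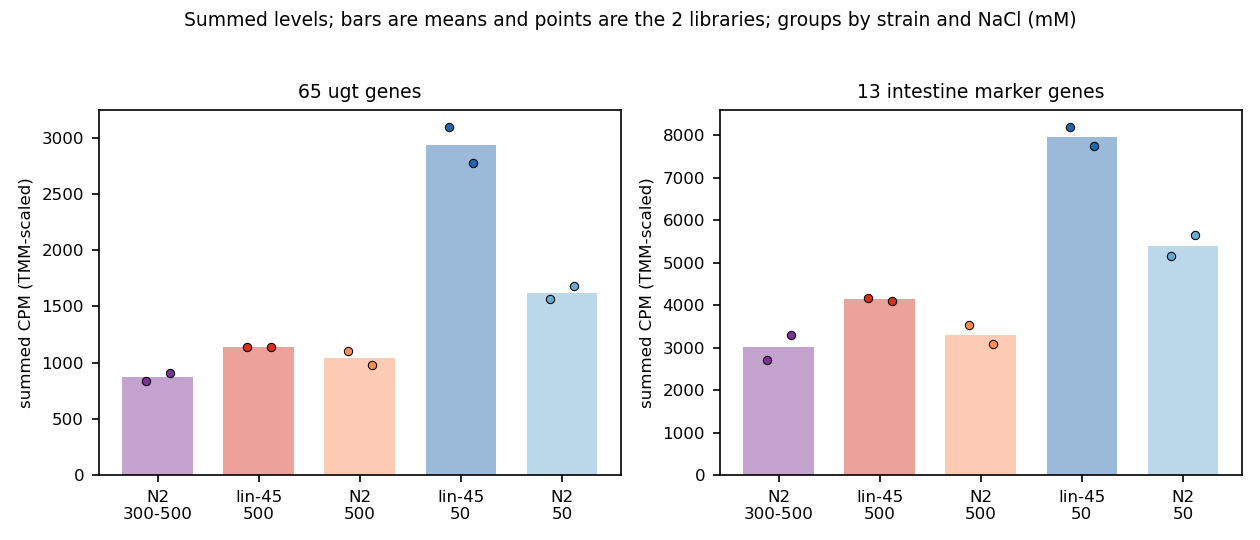
Summed TMM-scaled CPM of the 65 ugt genes (left) and of 13 intestine marker genes (right) in each group; bars are means and points are the 2 libraries. For both sums the lin-45 embryos on 50 mM stand highest, and for the ugt genes they reach 3093 and 2773 CPM.

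Markers of developmental stage also moved with salt. Of 10 maternal transcripts of early embryos, 7 rose and 0 fell on 500 mM in N2 embryos, against 31.4% higher and 32.1% lower of all genes tested. Their summed level was 118 to 147 CPM in N2 embryos on 500 mM, against 82.8 to 83.6 CPM in N2 embryos on 50 mM. Preconditioned libraries stood apart from each other in this list, with a sum of 254 CPM in replicate 1 and 121 CPM in replicate 2, and pos-1, a maternal RNA-binding factor, at 41.2 and 6.79 CPM. That group also had the widest spread between replicates over all genes, a root mean square difference of 0.478 on the log2(CPM + 0.5) scale, against 0.202 to 0.327 in the other groups. Of 5 tested genes of the feeding gut, 4 fell and acdh-1 rose; the list summed to 106 to 107 CPM in N2 embryos on 500 mM, against 466 to 576 CPM in N2 embryos on 50 mM. The corresponding sums were 110 to 120 CPM in preconditioned embryos, 123 to 128 CPM in lin-45 embryos on 500 mM and 960.4 to 1123 CPM in lin-45 embryos on 50 mM, with col-19 at 0 in lin-45 embryos on 500 mM. The part of developmental timing in the changes below was not tested.

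**Figure D2:**
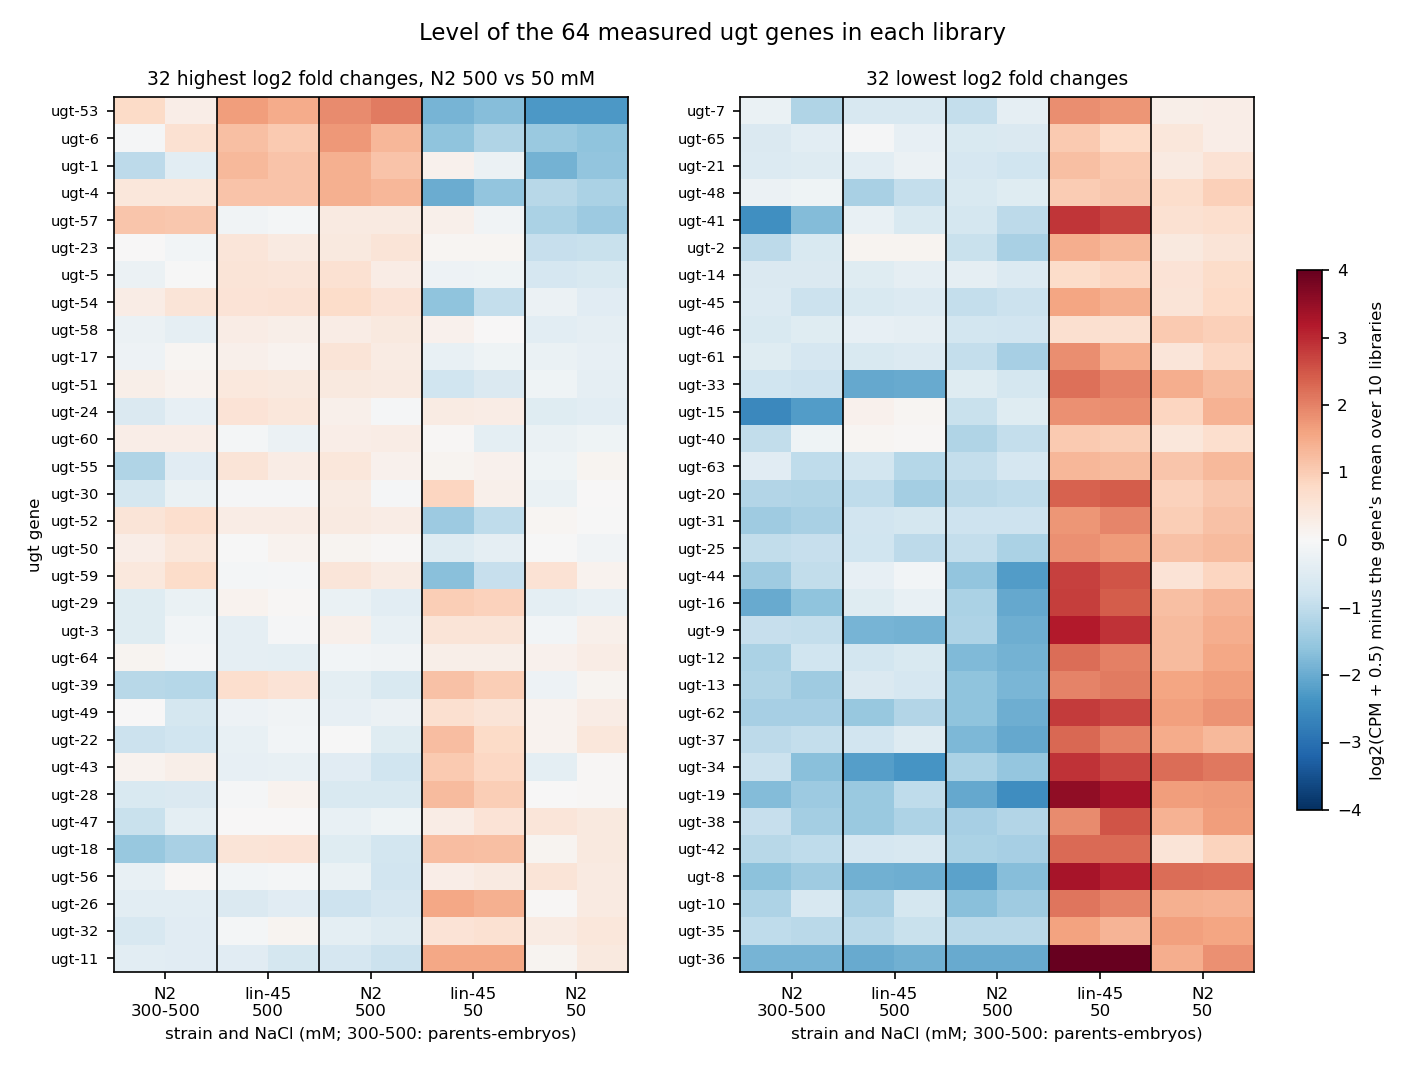
Level of the 64 measured ugt genes in each of the 10 libraries, as log2(CPM + 0.5) minus the gene's mean over all libraries, with genes ordered by their fold change in N2 embryos on 500 against 50 mM. Most genes of the right panel are highest in lin-45 embryos on 50 mM, which is the group with the highest mean for 43 of the 64 genes, while the top rows of the left panel are highest on 500 mM.

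The first comparison asked how wild-type embryos respond to 500 mM NaCl. Most of the family fell: 43 of 64 members were lower and 13 higher on 500 mM than on 50 mM at an adjusted p under 0.05 by edgeR's quasi-likelihood F test, against 32.1% lower and 31.4% higher of all 14802 genes tested. Errors of log2 fold changes are standard errors of the fit (SE). The median log2 fold change was -1.12 for the members and -0.01 for all genes. Of the 64 members, 35 fell past the threshold by at least 2-fold, against 2102 of all 14802 genes. A rise of at least 2-fold past the threshold was seen in 8 of the 64, against 1896 of all 14802 genes. The share of such risers was thus near that of all genes. Among the 8 were the member with the largest fold increase, ugt-53, and ugt-1, which became one of the most abundant members.

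The gene ugt-53 (chrV:2849349-2852029) had 20.2 and 23.2 CPM in N2 embryos on 500 mM, against 0.6603 and 0.656 CPM in N2 embryos on 50 mM. Both libraries on 50 mM thus lay under 1 CPM, and both on 500 mM were above 20. The difference was 32.8-fold (log2 fold change 5.03 ± 0.24, adjusted p = 1.18e-06, edgeR's quasi-likelihood test). For ugt-1 (chrV:10395653-10397794) the libraries held 84.3 and 68.7 CPM in N2 embryos on 500 mM, against 8.099 and 10.02 CPM in N2 embryos on 50 mM. Here the groups were far apart too, at 8.405-fold (3.07 ± 0.24, adjusted p = 1.21e-05), and per transcript length ugt-1 ranked 2nd in the family on 500 mM, against 44th on 50 mM. The neighbours ugt-6 and ugt-4 rose together. The first had 65.4 and 48.9 CPM in N2 embryos on 500 mM, against 6.56 and 5.96 CPM in N2 embryos on 50 mM (log2 fold change 3.19 ± 0.26, adjusted p = 1.36e-05). The second had 20.6 and 19.2 CPM in N2 embryos on 500 mM, against 3.17 and 2.81 CPM in N2 embryos on 50 mM (2.74 ± 0.15, adjusted p = 2.08e-06). The fifth by fold change was ugt-57 on chromosome X, an increase of 3.38-fold. It had 51.5 and 51.3 CPM in N2 embryos on 500 mM, against 16.2 and 14.2 CPM in N2 embryos on 50 mM (1.76 ± 0.12, adjusted p = 6.47e-06). In each of these genes no library on 50 mM reached the lower library on 500 mM. The other 8 members that rose, ugt-23, ugt-5, ugt-54, ugt-58, ugt-17, ugt-51, ugt-24 and ugt-60, had log2 fold changes of 0.50 to 1.39.

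The steepest losses among members of at least 10 CPM on 50 mM were those of ugt-8, ugt-19, ugt-34, ugt-37 and ugt-62. The most abundant member, ugt-62 (chrIII:4537244-4540605), had 19.5 and 15.2 CPM in N2 embryos on 500 mM, against 191 and 211 CPM in N2 embryos on 50 mM. It was 11.6-fold lower (log2 fold change -3.53 ± 0.16, adjusted p = 9.34e-07). Levels of ugt-8 were 0.299 and 0.589 CPM in N2 embryos on 500 mM, against 16.2 and 15.6 CPM in N2 embryos on 50 mM. This gene lay under 1 CPM in both libraries on 500 mM, 36.6-fold lower than on 50 mM (-5.19 ± 0.24, adjusted p = 1.02e-06). Levels of ugt-19 were 3.06 and 2.15 CPM in N2 embryos on 500 mM, against 46.5 and 47.8 CPM in N2 embryos on 50 mM (-4.16 ± 0.22, adjusted p = 1.47e-06). Levels of ugt-34 were 1.395 and 1.05 CPM in N2 embryos on 500 mM, against 20.7 and 19.04 CPM in N2 embryos on 50 mM (-4.002 ± 0.30, adjusted p = 8.89e-06). Levels of ugt-37 were 2.36 and 1.89 CPM in N2 embryos on 500 mM, against 27.3 and 24.2 CPM in N2 embryos on 50 mM (-3.58 ± 0.17, adjusted p = 1.24e-06). In all 5 genes the groups were separated by a wide gap. The gene models of ugt-37 and ugt-40 overlap on the same strand, so their counts depend on how the authors' counting split shared reads.

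A few members had almost no counts on 500 mM. No count of ugt-36 or ugt-35 was seen in N2 embryos on 500 mM, against 4.97 and 6.59 CPM of ugt-36 and 2.82 and 2.68 CPM of ugt-35 in N2 embryos on 50 mM. Taking 3 counts over the group as the limit, ugt-36 was at least 106-fold lower and ugt-35 at least 49.2-fold lower. For ugt-42 the ratio of summed counts was 0.0311 (exact 95% interval 0.00631 to 0.0937). Such bounds and intervals cover counting error only. The 2 members that did not pass the test in either strain were ugt-55 and ugt-30. In N2 embryos alone the list of those not past the threshold also held ugt-52, ugt-50, ugt-59, ugt-29, ugt-3 and ugt-43, with log2 fold changes of -0.60 to 0.32.

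**Figure D3:**
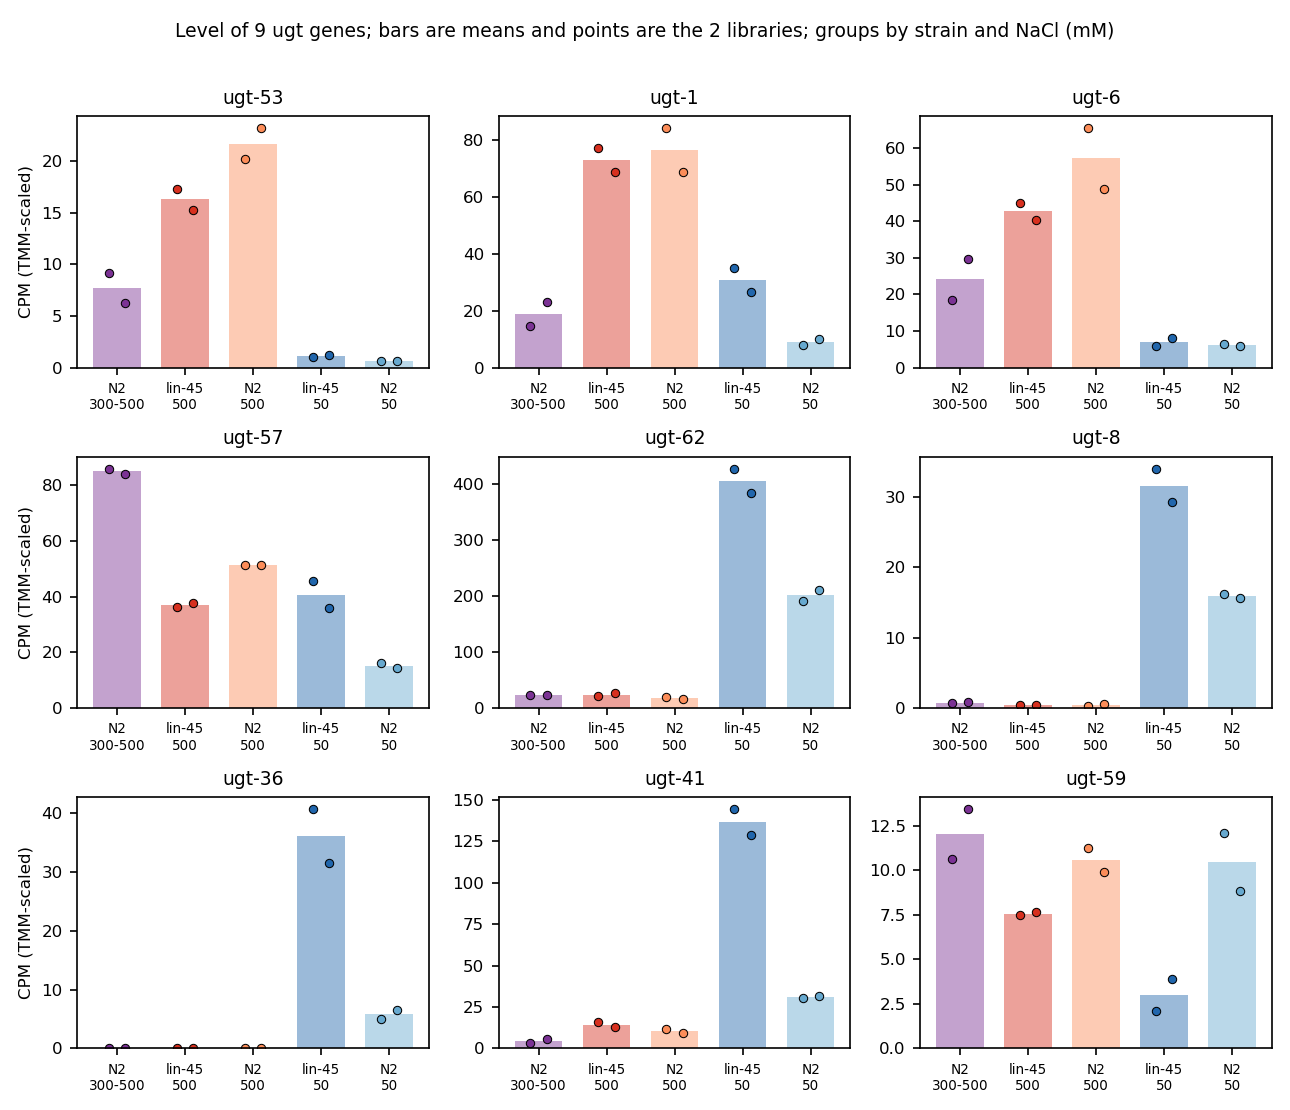
TMM-scaled CPM of 9 ugt genes in the 5 groups; bars are means, points the 2 libraries, and each panel has its own axis starting at 0. The genes ugt-53, ugt-1 and ugt-6 are highest in lin-45 and N2 embryos on 500 mM, ugt-57 is highest in preconditioned embryos, ugt-62, ugt-8, ugt-36 and ugt-41 are highest in lin-45 embryos on 50 mM, and ugt-59 is lowest there.

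The same comparison in lin-45 embryos asked how the mutant responds to salt. Here 44 of 64 members were lower and 12 higher on 500 mM, against 34.9% lower and 33.4% higher of all genes, with a median log2 fold change of -1.27 against -0.02. Of the 11 intestine markers 2 rose and 7 fell here, and of the 10 maternal transcripts 8 rose and 0 fell. The salt comparisons of the strains use separate libraries. Between them, 41 members fell in both strains, 9 rose in both and 0 moved in opposite directions past the threshold. Over all genes tested, the share lower in N2 and lin-45 embryos alike was 24.4% and the share higher in each was 22.4%. A further 1.36% were higher in lin-45 but lower in N2 embryos, and 0.844% did the reverse. The 41 members were 95.3% of those that fell in N2 and 93.2% of those that fell in lin-45 embryos, against 75.97% and 69.9% for all genes. They made up 64.1% of the members tested. The 9 that rose in both were 14.1% of the members tested, 69.2% of those that rose in N2 and 75% of those that rose in lin-45 embryos. For all genes the last 2 shares were 71.3% and 67.1%, so the risers were near them. The 9 were ugt-1, ugt-4, ugt-5, ugt-6, ugt-17, ugt-23, ugt-51, ugt-53 and ugt-54.

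Of the risers in the mutant, ugt-53 again had the largest fold change. Its level was 17.3 and 15.3 CPM in lin-45 embryos on 500 mM, against 1.06 and 1.24 CPM in lin-45 embryos on 50 mM (log2 fold change 3.81 ± 0.23, adjusted p = 2.08e-06). For ugt-4 the level was 16.97 and 16.9 CPM in lin-45 embryos on 500 mM, against 1.52 and 2.16 CPM in lin-45 embryos on 50 mM (3.18 ± 0.16, adjusted p = 1.07e-06). For ugt-6 it was 45.02 and 40.4 CPM in lin-45 embryos on 500 mM, against 5.996 and 7.96 CPM in lin-45 embryos on 50 mM (2.60 ± 0.25, adjusted p = 3.06e-05). These 3 genes were thus low in both lin-45 libraries on 50 mM and clearly higher in both on 500 mM. Next came ugt-54 and ugt-52. The level of ugt-54 was 25.5 and 26.6 CPM in lin-45 embryos on 500 mM, against 5.44 and 8.85 CPM in lin-45 embryos on 50 mM (1.85 ± 0.21, adjusted p = 6.66e-05), and that of ugt-52 was 14.7 and 14.6 CPM in lin-45 embryos on 500 mM, against 4.01 and 5.697 CPM in lin-45 embryos on 50 mM (1.58 ± 0.16, adjusted p = 3.57e-05). The gene ugt-52 did not pass the test in N2 embryos (log2 fold change 0.32, adjusted p = 0.0895).

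The deepest loss in the mutant was that of ugt-36, with 1 of the 2 libraries on 500 mM free of counts. It had 0 and 0.0337 CPM in lin-45 embryos on 500 mM, against 40.7 and 31.6 CPM in lin-45 embryos on 50 mM, a ratio of summed counts of 0.000461 (exact 95% interval 1.17e-05 to 0.00257). For ugt-35 the ratio was 0.0135 (0.00162 to 0.0498). The gene ugt-8 had 0.443 and 0.405 CPM in lin-45 embryos on 500 mM, against 34.04 and 29.2 CPM in lin-45 embryos on 50 mM (-6.20 ± 0.23, adjusted p = 3.28e-07). The gene ugt-34, which shares a run with ugt-35, had 0.475 and 0.371 CPM in lin-45 embryos on 500 mM, against 33.3 and 28.2 CPM in lin-45 embryos on 50 mM (-6.16 ± 0.34, adjusted p = 1.55e-06). Both were therefore under 1 CPM on 500 mM in each library. The gene ugt-9 had 2.98 and 2.902 CPM in lin-45 embryos on 500 mM, against 114.3 and 93.8 CPM in lin-45 embryos on 50 mM (-5.14 ± 0.23, adjusted p = 6.37e-07). The gene ugt-19 had 4.81 and 6.82 CPM in lin-45 embryos on 500 mM, against 173 and 146 CPM in lin-45 embryos on 50 mM (-4.78 ± 0.21, adjusted p = 5.19e-07). In each of these 6 genes the highest library on 500 mM lay far below the lowest on 50 mM.

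Whether the salt response itself differed between the strains was tested as an interaction, the log2 change in lin-45 minus that in N2. It passed for 18 members, 4 higher and 14 lower, against 12.2% higher and 14.3% lower of all genes, with a median of -0.35 for the members and -0.06 for all genes. The number called higher was 11 without either library of preconditioned embryos, which share only the estimate of spread, and 2 without 1 of N2 50 mM replicate 1, N2 500 mM replicate 2 or lin-45 500 mM replicate 1, so this count depends on single libraries. It was 7 without lin-45 50 mM replicate 2, and also under RLE factors, upper-quartile factors or no filter on low counts. The number called lower was 9 without N2 50 mM replicate 1.

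The lower calls were of different kinds. For ugt-33, ugt-34, ugt-9, ugt-41, ugt-20, ugt-11, ugt-26 and ugt-48 salt lowered the gene in both strains, and by more in lin-45. Of these, ugt-9, ugt-41, ugt-20, ugt-11, ugt-26, ugt-33 and ugt-34 were higher in lin-45 than in N2 embryos on 50 mM. That call of ugt-34 held in 3 of 15 alternatives only. On 500 mM ugt-33 was lower in lin-45 embryos. In ugt-9, ugt-41, ugt-20, ugt-11, ugt-26 and ugt-34 the strains did not differ past the threshold on 500 mM (adjusted p 0.0700 to 0.617, edgeR's quasi-likelihood test). The gene ugt-33 had the largest difference between the strains in the response. It had 1.58 and 1.59 CPM in lin-45 embryos on 500 mM, against 38.7 and 33.1 CPM in lin-45 embryos on 50 mM, and 5.61 and 4.71 CPM in N2 embryos on 500 mM, against 22.7 and 19.9 CPM in N2 embryos on 50 mM. The log2 fold changes were -4.50 ± 0.16 in lin-45 and -2.04 ± 0.14 in N2 embryos, a difference of -2.46 ± 0.20, adjusted p = 0.00143 by edgeR's quasi-likelihood test. For ugt-9 the changes were -5.14 ± 0.23 and -3.06 ± 0.22 (difference -2.08 ± 0.31, adjusted p = 0.00627), and for ugt-34 they were -6.16 ± 0.34 and -4.002 ± 0.30 (difference -2.16 ± 0.48, adjusted p = 0.0163). The last call was lost without any 1 of 4 libraries, N2 50 mM replicate 1, N2 500 mM replicate 1 or either lin-45 library on 500 mM. In ugt-1, ugt-53 and ugt-23 salt raised the gene in both strains, and by less in lin-45, although the call of ugt-53 held in 5 of 15 alternatives only. The gene ugt-48 overlaps cft-1 on the opposite strand, and its call was lost without N2 50 mM replicate 1, N2 500 mM replicate 2 or lin-45 500 mM replicate 1. The calls of ugt-41 and ugt-11 were each lost without 1 library, N2 50 mM replicate 1 for ugt-41 and lin-45 500 mM replicate 2 for ugt-11. The increase of ugt-23 in lin-45 embryos was lost without lin-45 500 mM replicate 1. For ugt-1 the log2 fold changes were 1.25 ± 0.22 in lin-45 and 3.07 ± 0.24 in N2 embryos (difference -1.82 ± 0.32, adjusted p = 0.00893). Its level on 500 mM was close in the strains, at 77.3 and 68.97 CPM in lin-45 and 84.3 and 68.7 CPM in N2 embryos, while on 50 mM it was 35.1 and 26.5 CPM in lin-45 and 8.099 and 10.02 CPM in N2 embryos. In ugt-57 and ugt-58 salt raised the gene in N2 embryos and did not pass the test in lin-45. The call of ugt-58 was lost with no filter on low counts and without N2 50 mM replicate 1, N2 500 mM replicate 2 or lin-45 500 mM replicate 2. For ugt-57 the changes were -0.14 ± 0.12 and 1.76 ± 0.12 (difference -1.89 ± 0.17, adjusted p = 0.00157). The remaining one, ugt-29, fell in lin-45 and did not pass the test in N2 embryos (difference -0.87 ± 0.15, adjusted p = 0.00858).

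Of the 4 higher calls, ugt-59 and ugt-52 rose on salt in lin-45 and did not pass the test in N2 embryos. The level of ugt-59 was 7.47 and 7.63 CPM in lin-45 embryos on 500 mM, against 2.12 and 3.91 CPM in lin-45 embryos on 50 mM, and 11.2 and 9.89 CPM in N2 embryos on 500 mM, against 12.1 and 8.804 CPM in N2 embryos on 50 mM. The lin-45 libraries on 50 mM were thus the low ones, and the difference of responses was 1.28 ± 0.37, adjusted p = 0.03704. This call was lost under 7 of the alternatives, among them the replicate block. The gene overlaps sir-2.1 on the opposite strand. For ugt-52 the difference was 1.26 ± 0.22, adjusted p = 0.00858. In ugt-46 and ugt-13 salt lowered the gene in both strains, and by less in lin-45, with differences of 0.76 ± 0.10, adjusted p = 0.00561 and 0.73 ± 0.15, adjusted p = 0.0134. The call of ugt-13 was lost without N2 50 mM replicate 1, N2 500 mM replicate 2 or lin-45 500 mM replicate 1.

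**Figure D4:**
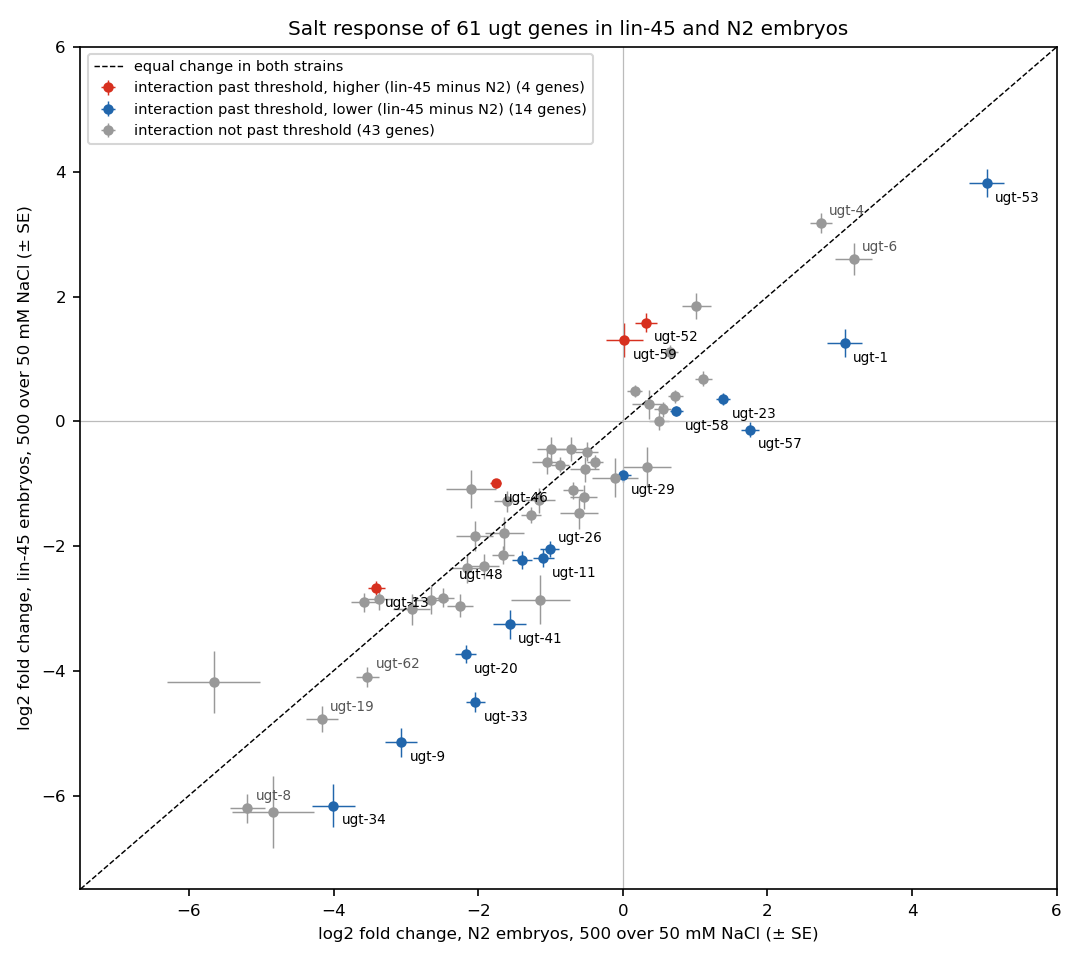
Log2 fold change on 500 over 50 mM NaCl in lin-45 embryos (vertical axis) and N2 embryos (horizontal axis), with bars of 1 SE, for 61 ugt genes; ugt-35, ugt-36 and ugt-42 are left out because a group held 3 or fewer counts. Most points lie in the lower left, and ugt-33, ugt-9, ugt-34, ugt-1 and ugt-57 are the farthest below the dashed line of equal change among the genes past the interaction threshold.

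Strains were next compared on the same salt level. On 50 mM, lin-45 embryos had more RNA of most of the family: 39 of 64 members were higher and 7 lower than in N2 embryos, against 33.2% higher and 21.1% lower of all genes. The median log2 fold change was 0.73 for the members and 0.16 for all genes. Past the threshold, 20 of the 64 members were higher by at least 2-fold, against 1159 of all 14802 genes. Of the 11 tested intestine markers 6 were higher and 0 lower in lin-45 embryos on 50 mM, and their part in the result was not tested. The largest increase was that of ugt-36. It had 40.7 and 31.6 CPM in lin-45 embryos on 50 mM, against 4.97 and 6.59 CPM in N2 embryos on 50 mM, a 6.21-fold difference (log2 fold change 2.63 ± 0.22, adjusted p = 1.26e-04, edgeR). The gene ugt-41 had 144 and 129 CPM in lin-45 embryos on 50 mM, against 30.5 and 31.6 CPM in N2 embryos on 50 mM (2.14 ± 0.22, adjusted p = 1.59e-04). The gene ugt-44 had 167 and 146 CPM in lin-45 embryos on 50 mM, against 36.3 and 45.3 CPM in N2 embryos on 50 mM (1.93 ± 0.22, adjusted p = 2.28e-04). In these genes each lin-45 library held more than 3 times the higher N2 library. The gene ugt-19 had 173 and 146 CPM in lin-45 embryos on 50 mM, against 46.5 and 47.8 CPM in N2 embryos on 50 mM (1.75 ± 0.18, adjusted p = 1.55e-04), and ugt-1 was raised to a like degree (1.75 ± 0.24, adjusted p = 4.60e-04).

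The 7 members lower in lin-45 embryos on 50 mM were ugt-59, ugt-52, ugt-54, ugt-4, ugt-51, ugt-46 and ugt-50. The level of ugt-59 is given above, and its log2 fold change was -1.76 ± 0.27, adjusted p = 9.09e-04. For ugt-52 the level was 4.01 and 5.697 CPM in lin-45 embryos on 50 mM, against 12.5 and 11.8 CPM in N2 embryos on 50 mM (-1.31 ± 0.16, adjusted p = 2.91e-04). For ugt-54 it was 5.44 and 8.85 CPM in lin-45 embryos on 50 mM, against 14.7 and 12.5 CPM in N2 embryos on 50 mM (-0.91 ± 0.21, adjusted p = 0.00593). The strains did not overlap in either gene. The smallest of the 5 by rule were ugt-51 (-0.43 ± 0.11, adjusted p = 0.0124) and ugt-46 (-0.36 ± 0.07, adjusted p = 0.003402). The number called lower was 4 without N2 50 mM replicate 1 or without lin-45 50 mM replicate 1, and the call of ugt-51 was lost in both cases.

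On 500 mM the strains were closer. Here 14 of 64 members were higher in lin-45 and 3 lower, against 4.84% higher and 1.65% lower of all genes, with a median log2 fold change of 0.17 against 0.00. Among members of at least 10 CPM in either group the 5 largest were ugt-44, ugt-16, ugt-2, ugt-12 and ugt-39. The gene ugt-44 had 19.8 and 23.1 CPM in lin-45 embryos on 500 mM, against 7.97 and 4.84 CPM in N2 embryos on 500 mM, a 3.31-fold difference (1.73 ± 0.24, adjusted p = 0.004497). The gene ugt-16 had 26.2 and 29.96 CPM in lin-45 embryos on 500 mM, against 14.9 and 8.503 CPM in N2 embryos on 500 mM (1.25 ± 0.25, adjusted p = 0.0215). The gene ugt-2 had 19.3 and 19.6 CPM in lin-45 embryos on 500 mM, against 9.37 and 6.99 CPM in N2 embryos on 500 mM (1.25 ± 0.18, adjusted p = 0.00518). No N2 library reached the lower lin-45 library in these genes. The genes ugt-12 (1.23 ± 0.18, adjusted p = 0.006504) and ugt-39 (1.18 ± 0.16, adjusted p = 0.00391) were at lower levels, with 12.3 and 11.4 CPM of ugt-39 in lin-45 embryos, against 5.65 and 4.76 CPM in N2 embryos. The lower calls were ugt-33, ugt-48 and ugt-57. The gene ugt-33 had 1.58 and 1.59 CPM in lin-45 embryos on 500 mM, against 5.61 and 4.71 CPM in N2 embryos on 500 mM (-1.71 ± 0.16, adjusted p = 5.67e-04), while ugt-48 (-0.61 ± 0.14, adjusted p = 0.0421) and ugt-57 (-0.47 ± 0.12, adjusted p = 0.0491) each lost the call under 7 alternatives.

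The comparisons of strains on the 2 salt levels use separate libraries. Of the 39 members higher on 50 mM, 12 were higher on 500 mM as well, which is 30.8% of the 39 and 85.7% of the 14 higher on 500 mM. Over all genes tested, 11.5% of those higher on 50 mM were higher on 500 mM, and these made up 79.1% of those higher on 500 mM. Whether the members differ from other genes in this was not tested. The gene ugt-46 was lower in lin-45 on 50 mM and higher on 500 mM, and ugt-33 and ugt-57 were higher on 50 mM and lower on 500 mM. For ugt-46 the level was 97.2 and 97.6 CPM in lin-45 embryos on 50 mM, against 128 and 122 CPM in N2 embryos on 50 mM, and 49.01 and 48.96 CPM in lin-45 embryos on 500 mM, against 37.4 and 36.7 CPM in N2 embryos on 500 mM. The call of ugt-46 on 500 mM was lost without any 1 of the 4 N2 and lin-45 libraries on that salt. The number called higher on 500 mM was 7, 5, 8 and 7 without N2 500 mM replicate 1, N2 500 mM replicate 2, lin-45 500 mM replicate 1 and lin-45 500 mM replicate 2, and the number called lower was 1 without any of these or without either N2 library on 50 mM. The call of ugt-16 was lost without N2 500 mM replicate 2 or either lin-45 library on 500 mM, that of ugt-12 without either N2 library on 500 mM and that of ugt-2 without N2 500 mM replicate 2.

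Preconditioned embryos were then compared with N2 embryos on 500 mM whose parents had grown on 50 mM, which asks what parental salt changes in embryos under the same stress. Of 64 members 15 were lower and 6 higher in preconditioned embryos, against 12% lower and 10.2% higher of all genes, with a median log2 fold change of 0.13 against 0.05. The share of higher calls was thus near that of all genes. With a bound for ugt-36 and a ratio of summed counts for ugt-42 in place of the fit, the median of the members was 0.07. The preconditioned replicates differed in maternal transcripts, as given above. The members lower and higher were 15 and 8 without replicate 1 and 16 and 5 without replicate 2. Lower members included ugt-1, ugt-53 and ugt-6, and ugt-57 was higher. This comparison shares the N2 libraries on 500 mM with the salt comparison in N2 embryos, so levels of the 3 N2 groups are given side by side.

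For ugt-1 the level was 14.8 and 23.2 CPM in preconditioned embryos, against 84.3 and 68.7 CPM in N2 embryos on 500 mM (log2 fold change -2.01 ± 0.23, adjusted p = 8.93e-04), and N2 embryos on 50 mM had 8.099 and 10.02 CPM. For ugt-53 it was 9.16 and 6.26 CPM in preconditioned embryos, against 20.2 and 23.2 CPM in N2 embryos on 500 mM (-1.49 ± 0.18, adjusted p = 0.00115), and N2 embryos on 50 mM had 0.6603 and 0.656 CPM. For ugt-6 it was 18.45 and 29.7 CPM in preconditioned embryos, against 65.4 and 48.9 CPM in N2 embryos on 500 mM (-1.25 ± 0.23, adjusted p = 0.00671), and N2 embryos on 50 mM had 6.56 and 5.96 CPM. In all 3 genes the preconditioned libraries lay between the 2 other N2 groups, without overlap. The genes ugt-41 and ugt-55 were lower as well. The level of ugt-41 was 3.18 and 5.59 CPM in preconditioned embryos, against 11.7 and 9.18 CPM in N2 embryos on 500 mM (-1.26 ± 0.24, adjusted p = 0.00783), and that of ugt-55 was 8.09 and 14.01 CPM in preconditioned embryos, against 26.8 and 21.97 CPM in N2 embryos on 500 mM (-1.15 ± 0.24, adjusted p = 0.0104). On 50 mM, N2 embryos had 30.5 and 31.6 CPM of ugt-41 and 17.03 and 21.01 CPM of ugt-55. In both genes the preconditioned libraries thus lay below both other N2 groups. The largest fold change was that of ugt-15, at 0.2402 and 0.439 CPM in preconditioned embryos, against 1.86 and 2.61 CPM in N2 embryos on 500 mM (-2.71 ± 0.34, adjusted p = 0.001302), a gene under the level of 10 CPM set for naming and singled out after its values were seen. N2 embryos on 50 mM had 7.44 and 10.9 CPM of ugt-15, so the preconditioned libraries were the lowest of the N2 groups here too.

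The gene ugt-57 went the other way. Its level was 85.95 and 84.1 CPM in preconditioned embryos, against 51.5 and 51.3 CPM in N2 embryos on 500 mM, a 1.66-fold difference (0.73 ± 0.12, adjusted p = 0.00363), and N2 embryos on 50 mM had 16.2 and 14.2 CPM. The preconditioned libraries were the highest of all 10 for this gene, and by mean CPM ugt-57 was the most abundant member of that group, although ugt-50 stood above it in replicate 2, at 86.04 CPM. The other higher calls were ugt-13 (0.42 ± 0.11, adjusted p = 0.0315) and, under 10 CPM in both groups, ugt-37, ugt-43, ugt-12 and ugt-19, with log2 fold changes of 0.74 to 1.08. The call of ugt-13 was lost without any 1 of 6 libraries. The number called higher was 2 without N2 500 mM replicate 2, 12 with no filter on low counts and 10 by DESeq2. The number called lower was 7 without N2 500 mM replicate 1, and the calls of ugt-6, ugt-41 and ugt-55 were then lost.

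**Figure D5:**
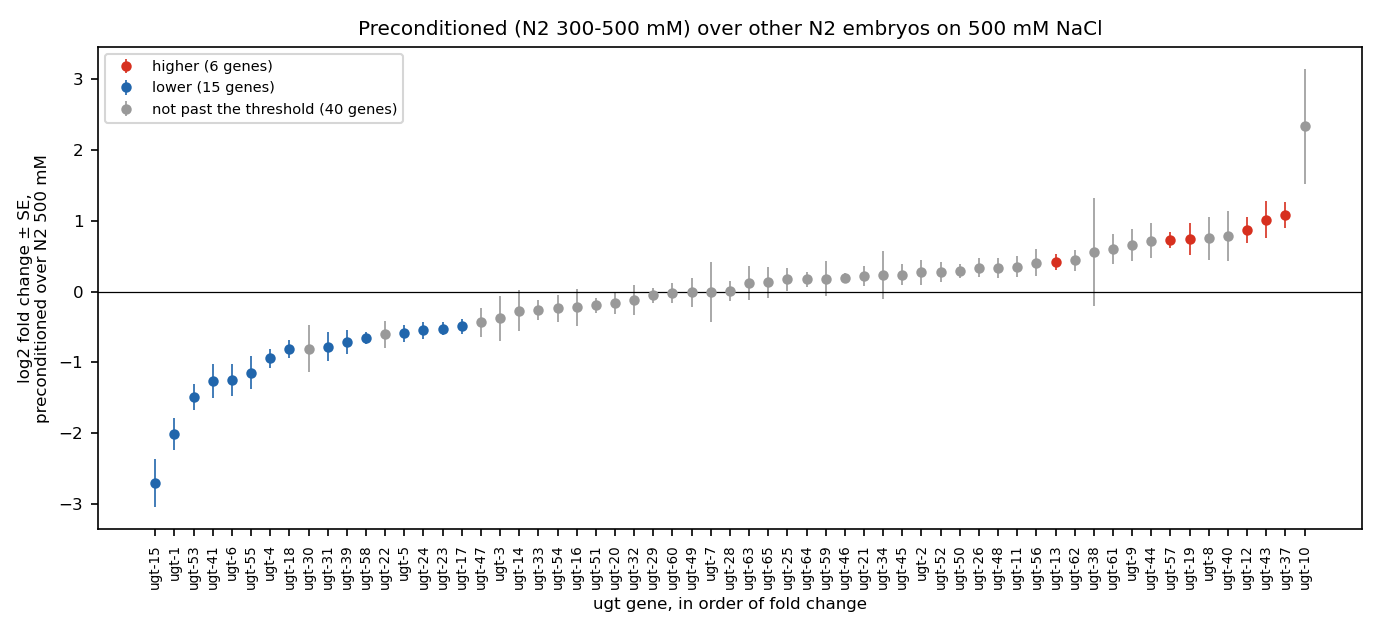
Log2 fold change, preconditioned over other N2 embryos on 500 mM NaCl, with bars of 1 SE, for 61 ugt genes in order of fold change; ugt-35, ugt-36 and ugt-42 are left out because a group held 3 or fewer counts. The 15 lower calls (blue) run from ugt-15 to ugt-17, and the 6 higher calls (red) include ugt-57 at 0.73 and ugt-37 at 1.08.

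Set against N2 embryos on 50 mM, preconditioned embryos had 43 members lower and 12 higher, against 27.9% lower and 30.4% higher of all genes, with a median log2 fold change of -1.15 against 0.04. All 10 maternal transcripts were higher here, with a median log2 fold change of 2.20. Of 11 intestine markers 3 were higher and 5 lower, of 8 epidermis genes 6 and 0, and of 6 body wall muscle genes 0 and 4. The part of stage and tissue in this comparison was not tested. Among members of at least 10 CPM the largest increase was that of ugt-57, with 85.95 and 84.1 CPM in preconditioned embryos, against 16.2 and 14.2 CPM in N2 embryos on 50 mM, a 5.59-fold difference (2.48 ± 0.12, adjusted p = 2.28e-06). Further increases past the threshold were those of ugt-6 (1.94 ± 0.25, adjusted p = 2.96e-04), ugt-4 (1.79 ± 0.15, adjusted p = 2.94e-05), ugt-1 (1.06 ± 0.24, adjusted p = 0.00506) and ugt-23 (0.87 ± 0.10, adjusted p = 1.37e-04). By fold change ugt-53 was higher still (3.54 ± 0.24, adjusted p = 9.88e-06), but it stayed under 10 CPM in preconditioned embryos. The lowest of at least 10 CPM were ugt-8 (-4.44 ± 0.21, adjusted p = 1.80e-06), ugt-34 (-3.77 ± 0.28, adjusted p = 1.55e-05), ugt-19 (-3.42 ± 0.20, adjusted p = 4.35e-06), ugt-16 (-3.14 ± 0.26, adjusted p = 2.36e-05) and ugt-62 (-3.09 ± 0.15, adjusted p = 2.18e-06). The loss of ugt-62 left 23.7 and 23.6 CPM in preconditioned embryos, against 191 and 211 CPM in N2 embryos on 50 mM. For ugt-35, with 1 count in the preconditioned group, the ratio of summed counts was 0.00509 (exact 95% interval 0.000128 to 0.0288).

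Neighbouring members mostly moved the same way under salt. Most of the family fell, so members taken from any place would often match too. Such pairs were not counted, and an effect of position was not tested. Among 17 pairs of neighbours within runs in which both genes were tested, 13 pairs had both members past the threshold in the same direction in N2 embryos on 500 against 50 mM, 1 pair in opposite directions and 3 pairs had 1 member past it. Neighbours can share reads of similar sequence, so these pairs are not independent. The opposite pair was ugt-1 and ugt-2. The level of ugt-2 was 9.37 and 6.99 CPM in N2 embryos on 500 mM, against 23.9 and 26.2 CPM in N2 embryos on 50 mM (log2 fold change -1.61 ± 0.18, adjusted p = 8.31e-05), whereas ugt-1 beside it rose. In lin-45 embryos 14 pairs moved the same way and 2 in opposite directions, ugt-1 with ugt-2 and ugt-6 with ugt-3. The lower call of ugt-3 in lin-45 embryos was lost by DESeq2 and without any 1 of the 4 lin-45 libraries. The run of ugt-5, ugt-4, ugt-6 and ugt-3 was the sole run in which most members rose. Its member ugt-5 had 61.99 and 50.2 CPM in N2 embryos on 500 mM, against 25.3 and 26.5 CPM in N2 embryos on 50 mM (1.12 ± 0.12, adjusted p = 6.62e-05), and its end member ugt-3 stayed under 2 CPM in all N2 libraries on either salt. The tested members of the run on chromosome I, ugt-26, ugt-28 and ugt-25, fell in both strains, with log2 fold changes of -1.01, -0.69 and -2.49 in N2 embryos, and all 3 were higher in lin-45 than in N2 embryos on 50 mM. All members of the 4 runs of 3 genes fell in both strains. Chromosome V held 30 of the 43 members that fell and 7 of the 13 that rose in N2 embryos, and the other chromosomes 13 and 6.

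Genes that supply or control the family moved in both directions. Of 13 genes that make or carry UDP-sugars, 5 rose and 6 fell in N2 embryos on 500 mM, and 6 rose and 3 fell in lin-45 embryos, with median log2 fold changes of -0.40 and 0.12. Of all genes tested, 31.4% rose and 32.1% fell in N2 embryos, and 33.4% rose and 34.9% fell in lin-45 embryos. Whether these genes differ from all genes was not tested. The largest change was in D1005.2, a homologue of the enzyme that makes UDP-glucose, with 174 and 152 CPM in N2 embryos on 500 mM, against 6.69 and 6.09 CPM in N2 embryos on 50 mM (log2 fold change 4.67 ± 0.15, adjusted p = 3.31e-07). A second such homologue, K08E3.5, rose as well (1.096 ± 0.10, adjusted p = 2.60e-05), and the nucleotide-sugar transporter gene F15B10.1 (nstp-2) fell (-1.15 ± 0.10, adjusted p = 2.08e-05). Of 22 regulators of detoxification, 12 rose and 6 fell in N2 embryos, against 31.4% higher and 32.1% lower of all genes, and 11 rose and 6 fell in lin-45 embryos. Those with the smallest p-values were daf-16, a FOXO factor of insulin signalling (1.67 ± 0.13, adjusted p = 1.36e-05), ZC376.7 (atfs-1), a factor of the mitochondrial stress response (-0.93 ± 0.08, adjusted p = 2.52e-05), and skn-1, the Nrf-like factor of phase II genes (-0.73 ± 0.07, adjusted p = 2.78e-05).

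Other detoxification families also had more members lower than higher on salt. In N2 embryos 37 of 73 cytochrome P450 genes were lower and 20 higher, 30 of 42 glutathione transferase genes were lower and 5 higher, and 13 of 21 ABC exporter genes were lower and 3 higher, with median log2 fold changes of -0.56, -1.82 and -0.61. Of all genes tested, 32.1% were lower and 31.4% higher on salt in N2 embryos, and the 27.4% of P450 genes higher was near that share. On 50 mM, 48 of the P450 genes were higher and 7 lower in lin-45 than in N2 embryos. For the glutathione transferase genes 26 were higher and 0 lower, and for the exporter genes 16 and 1. Of all genes tested, 33.2% were higher and 21.1% lower in lin-45 embryos on 50 mM. Differences between these families and the ugt genes were not tested.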

How the data were processed

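RNA of 10 embryo libraries in 5 groups of 2 was sequenced as read pairs after polyadenylated RNA selection, per the labels' protocols. Tools named in the submitters' processing notes are RSEM 1.2.15, BWA 0.6.1, DESeq 1.10.1 and bedtools 2.25.0, and the genome build is ce10. Neither the gene annotation nor the use of strand in counting is given in the sources used here. The authors deposited RSEM expected counts, which are not normalized, and FPKM, scaled for length and depth. The deposited log2 columns equal log2(FPKM + 1).

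Groups came from the sample titles. Expected counts were rounded and tested in edgeR 4.0.16 (R 4.3.3). The filter of 1 CPM in at least 2 libraries left 14802 genes, libraries were scaled by TMM (factors 0.923 to 1.083), and all CPM are TMM-scaled unless said otherwise. One quasi-likelihood model with 5 group means was fitted to all 10 libraries (residual degrees of freedom 5, median prior degrees of freedom 3.65, common coefficient of variation 13.1%). Two-sided F tests of 7 contrasts were adjusted by Benjamini-Hochberg over all genes, with a threshold of 0.05. Errors of log2 fold changes are SE of the fit. The script was tested on simulated data.

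The members, gene lists and rules were chosen with earlier results of these data known. Genes are named by rule: per comparison the 5 highest and 5 lowest fold changes among called members whose higher group averaged 10 CPM or more, the 6 highest mean FPKM, the longest runs, the members nearest the CPM limit, and of other lists the 3 smallest p-values. Where runs of equal length competed for the last place, all were named. Genes outside the rule, among them ugt-15 and ugt-2, were picked with their values in view. Of the listed genes, 5 were matched through newer symbols in RefSeq and 1, opt-2, was not matched. RefSeq ugt-66 and ugt-67 are deposited under their sequence names and are not members. Alternatives were RLE and upper-quartile factors, no filter, DESeq2 1.42.0, a replicate block, leaving out each library, and, chosen after seeing the data, leaving out the 7 members that overlap another protein-coding gene. Of nonzero member counts, 57.4% were whole within 0.005, near the 59.9% of all nonzero counts. Levels of any near-identical members are uncertain, and likeness of sequence between members was not tested.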

Additional observations from a re-analysis of the deposited data

Results flagged for a closer look

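For 18 of 64 members the salt response differed between lin-45 and N2 embryos by the interaction test. Of the members 6.25% were called higher and 21.9% lower, against 12.2% higher and 14.3% lower of all genes tested. Each value is the log2 fold change on salt in lin-45 minus that in N2, with edgeR's adjusted p. More negative in lin-45 by over 1 unit were ugt-33 (-2.46, adjusted p = 0.00143), ugt-34 (-2.16, adjusted p = 0.0163), ugt-9 (-2.08, adjusted p = 0.00627), ugt-57 (-1.89, adjusted p = 0.00157), ugt-1 (-1.82, adjusted p = 0.00893) and ugt-41 (-1.69, adjusted p = 0.00968). The same holds for ugt-20 (-1.56, adjusted p = 0.00454), ugt-53 (-1.22, adjusted p = 0.03397), ugt-11 (-1.10, adjusted p = 0.00973), ugt-23 (-1.04, adjusted p = 0.00519) and ugt-26 (-1.03, adjusted p = 0.009101). Smaller differences of the same sign were those of ugt-29 (-0.87, adjusted p = 0.00858), ugt-48 (-0.82, adjusted p = 0.0196) and ugt-58 (-0.58, adjusted p = 0.0129). Positive differences were those of ugt-13 (0.73, adjusted p = 0.0134), ugt-46 (0.76, adjusted p = 0.00561), ugt-52 (1.26, adjusted p = 0.00858) and ugt-59 (1.28, adjusted p = 0.03704). The call of ugt-58 held in 11 and that of ugt-48 in 12 of 15 alternatives. The call of ugt-53 held in 5 of 15 alternatives, and its level on 50 mM was 1.06 and 1.24 CPM in lin-45 embryos and 0.6603 and 0.656 CPM in N2 embryos.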

How the results depend on the processing

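The summed level stayed below that of N2 embryos on 50 mM in all groups on 500 mM, and above it in lin-45 embryos on 50 mM. This held with RLE factors, with FPKM and without ugt-62. Counts of members called have no direction of their own, and some shifted, as given here and below. The interaction gave 7 members higher in place of 4 under RLE factors, upper-quartile factors and no filter. Upper-quartile factors shifted the median of all genes by 0.104 in the interaction, and by under 0.1 in every other comparison. For preconditioned against N2 embryos on 500 mM, 12 members were higher with no filter and 10 by DESeq2, in place of 6. Without ugt-62 the summed level relative to N2 embryos on 50 mM was 0.595 in preconditioned embryos, 0.783 in lin-45 embryos on 500 mM and 0.719 in N2 embryos on 500 mM, in place of 0.536, 0.701 and 0.641. With FPKM in place of CPM it was 1.62 rather than 1.81 in lin-45 embryos on 50 mM.

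Leaving out 1 library at a time, which leaves its group with 1 sample assumed to vary like the others, gave these ranges of members higher and lower. They were 12 to 14 and 38 to 43 for salt in N2, 10 to 15 and 39 to 45 for salt in lin-45, and 2 to 11 and 9 to 15 for the interaction. Between strains they were 30 to 39 and 4 to 7 on 50 mM, and 5 to 16 and 1 to 4 on 500 mM. For preconditioned embryos they were 2 to 8 and 7 to 16 against N2 on 500 mM, and 8 to 12 and 38 to 43 against N2 on 50 mM. Of 630 such repeats over the 63 values of single named members, 587 stayed past the threshold and 43 did not.

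Replicate numbers did not pair the samples: correlations between groups of the difference between replicates 1 and 2 ranged from -0.284 to 0.112. With the replicate block, every member count stayed within 1.5 times its value, with 56 of 64 members called for salt in N2 without the block and 54 of these 56 with it; of the named members, ugt-59 in the interaction and ugt-57 between the strains on 500 mM were no longer called. Leaving out the members that overlap another gene gave 13 higher and 38 lower for salt in N2. Depth limits members under about 1 CPM, among them ugt-35, ugt-36 and ugt-42 on 500 mM.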

Other observations

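Markers of other tissues were counted beside the family. Of 8 tested epidermis genes 4 rose and 1 fell on 500 mM in N2 embryos, and their summed level was 1708 to 1717 CPM in N2 embryos on 500 mM, against 1126 to 1214 CPM in N2 embryos on 50 mM. In lin-45 embryos on 50 mM the epidermis sum was 668 to 724 CPM, the lowest of the 5 groups, where the ugt sum was the highest. Of 7 neuron genes 1 rose and 4 fell on salt in N2 embryos, of 6 body wall muscle genes 1 rose and 1 fell, of 5 pharynx genes 1 rose and 2 fell, and of 5 excretory canal genes 0 rose and 2 fell. Over all genes tested, 31.4% rose and 32.1% fell on salt in N2 embryos. The part of these tissues in the levels of the ugt genes was not tested.

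The 2 genes that RefSeq now counts in the family were also lower on 500 mM. C23G10.6 (ugt-66) had 1.40 and 1.05 CPM in N2 embryos on 500 mM and 39.7 and 31.3 CPM in lin-45 embryos on 50 mM, against 16.9 and 19.6 CPM in N2 embryos on 50 mM. H23N18.4 (ugt-67) had 0.199 and 0.210 CPM in N2 embryos on 500 mM and 3.23 and 2.02 CPM in lin-45 embryos on 50 mM, against 1.45 and 1.06 CPM in N2 embryos on 50 mM. Both were singled out after the naming table was read, and no test is given for them.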
